A study of Mus musculus with 9 samples.

Results

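The genes of major histocompatibility complex (MHC) class II and of its peptide loading were examined as 7 members: Cd74, H2-Aa, H2-Ab1, H2-Eb1, H2-DMa, H2-DMb1 and Ciita. They were chosen by gene symbol, and all 7 were found among the 38215 genes of the table. RNA had been sequenced from bone marrow LSK cells (negative for lineage markers, positive for Sca1 and Kit), the fraction that holds haematopoietic stem cells and multipotent progenitors. The cells came from C57BL/6J mice carrying Jak2V617F, which keeps the kinase Jak2 active and is common in myeloproliferative neoplasms. Tamoxifen is the treatment given for every sample, and cells positive for both GFP and mCherry were sorted at a terminal time point. The control group was 5 libraries with EV in the title and the genotype Jak2V617F. The other group was 4 libraries with the genotype Jak2V617F-sgZrsr2, which the series describes as having lost Zrsr2, a factor of the minor spliceosome. The labels spell out neither EV nor sg. The ages of the mice, what GFP and mCherry mark and what tamoxifen switches on are not given in the sources used here. The comparison of sgZrsr2 with EV asked what loss of Zrsr2 does in cells that already carry the Jak2 mutation.

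MHC class II proteins carry peptides from endosomes to the cell surface, where CD4+ T cells read them. An alpha and a beta chain are assembled on the invariant chain Cd74, which is then cut away by proteases such as cathepsin S, and the DM protein exchanges the remaining fragment for other peptides. Ciita, a coactivator that does not itself bind DNA, switches these genes on together through RFX, CREB and NFY factors bound to an X box and a Y box in their promoters, and interferon gamma induces Ciita through the kinases Jak1 and Jak2. In bone marrow, class II is best known from dendritic cells, B cells and macrophages.

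Promoter sequence is shown for H2-Aa and H2-Eb1, members whose levels went together from library to library, and for H2-Ob, a gene of the same region that was highest in the library with the lowest H2-Ab1. The RefSeq table (GRCm38.p6) held windows for 4 of the 7 members (H2-Aa, H2-Eb1, H2-DMa and H2-DMb1). Printed are the 250 bases before the RefSeq start, 5′ to 3′ on the strand of the gene. Capitals mark the strings searched on both strands: CCAAT or its reverse ATTGG, the core of the Y box, and the X box strings CCTNGNNAC and CTNGNAAC, which overlap where both are present. H2-Aa lies on the minus strand at chr17:34287824-34288073, H2-Eb1 on the plus strand at chr17:34305617-34305866 and H2-Ob on the plus strand at chr17:34238655-34238904.
H2-Aa: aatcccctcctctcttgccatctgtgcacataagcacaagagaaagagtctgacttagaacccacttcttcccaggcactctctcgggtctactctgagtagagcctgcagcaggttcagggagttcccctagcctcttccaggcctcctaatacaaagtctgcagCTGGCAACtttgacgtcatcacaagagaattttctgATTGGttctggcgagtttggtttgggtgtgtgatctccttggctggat
H2-Eb1: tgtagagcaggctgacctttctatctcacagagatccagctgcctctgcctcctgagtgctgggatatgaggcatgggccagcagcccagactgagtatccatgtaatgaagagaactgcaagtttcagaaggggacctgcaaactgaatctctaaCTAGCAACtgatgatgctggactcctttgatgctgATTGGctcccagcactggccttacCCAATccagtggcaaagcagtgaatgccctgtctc
H2-Ob: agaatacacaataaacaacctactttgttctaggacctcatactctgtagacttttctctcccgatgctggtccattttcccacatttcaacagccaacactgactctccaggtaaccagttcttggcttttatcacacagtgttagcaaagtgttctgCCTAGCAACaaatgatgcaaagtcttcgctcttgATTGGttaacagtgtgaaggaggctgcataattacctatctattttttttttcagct

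The string CTNGNAAC was followed by ATTGG on the same strand in all 3 promoters. The first letters of the pair stood 36 bases apart in H2-Aa (positions -84 and -48 from the RefSeq start), 35 in H2-Eb1 (-94 and -59) and 33 in H2-Ob (-90 and -57). H2-DMb1 held the same pair 36 bases apart (-97 and -61). Of the 4 other class II region genes with a window, only H2-Ob held it. H2-Oa held ATTGG and neither X box string, and H2-Eb2 held CTNGNAAC after ATTGG and closer to the start. The H2-DMb2 window also held ATTGG and neither X box string. Its RefSeq start lies 1942 bases downstream of its start in the deposited table. That window therefore does not show that the promoter counted there lacks the pair. Of all 32851 promoter windows in the table, 37.4% held CCAAT or ATTGG, 15.8% held CCTNGNNAC, 13.2% held CTNGNAAC, and 49 (0.149%) held the pair with starts 15 to 40 bases apart. The string CTNGNAAC and the spacing were chosen after these promoters had been read, so the shares only describe them. CCTNGNNAC was present in H2-DMb1 and H2-Ob and in neither H2-Aa nor H2-Eb1. The RefSeq starts of H2-DMa lie 9664 and 12350 bases upstream of its start in the deposited table, so its windows were not read as the promoter counted there. A match describes letters and shows no binding.

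The libraries held 23238264 to 45585531 expected counts. In CPM, the expected counts divided by the library total and scaled with TMM factors, Zrsr2 ran from 50.6 to 62.2 over the EV libraries and from 31.7 to 44.4 over the sgZrsr2 libraries, without overlap (edgeR log2 fold change -0.46, SE 0.12, adjusted p = 0.714). The LSK markers were present, with Kit at 246.7 to 631.9 CPM, Cd34 at 543.9 to 705.1 CPM and Ly6a, which encodes Sca1, at 14.8 to 49.3 CPM. Libraries sgZrsr2 1 and 2 were the nearest pair, with a median absolute log2 difference of 0.0576 over abundant genes against 0.0768 to 0.499 for the other 35 pairs. In EV 5, sgZrsr2 3 and sgZrsr2 5, Car1, an early erythroid gene, was at 25.4 to 39.3 CPM, and it was at most 0.422 CPM in the other 6. Libraries are named by the number after m in their titles, read here as the mouse, and the p-values measure only the spread between these libraries, which may in part be technical.

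All 7 members were detected in every library, on 40 to 7365 expected counts. In edgeR's quasi-likelihood test 0 of them passed an adjusted p of 0.05, as did 0 of the 14944 genes tested (0%), and 0 had an unadjusted p under 0.05, where 6.85% of all genes did. The log2 fold change with sgZrsr2 was below 0 for 6 of the 7, against 51.5% of all genes. Its median over the members was -0.29, against -0.01 over all genes tested. Over the fits that each left out 1 library this median ran from -0.52 (without sgZrsr2 5) to -0.20 (without sgZrsr2 1). In no member did the groups stand apart without overlap, which 3.06% of all genes did (1.75% higher and 1.32% lower with sgZrsr2). The 95% intervals of the log2 fold change reached down to -0.82 for H2-Eb1, -0.91 for H2-Aa, -0.98 for Cd74 and -1.34 for Ciita, so differences of that size lie within the error. A lower level in such bulk samples cannot tell fewer cells of a type from less RNA per cell.

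**Figure D1:**
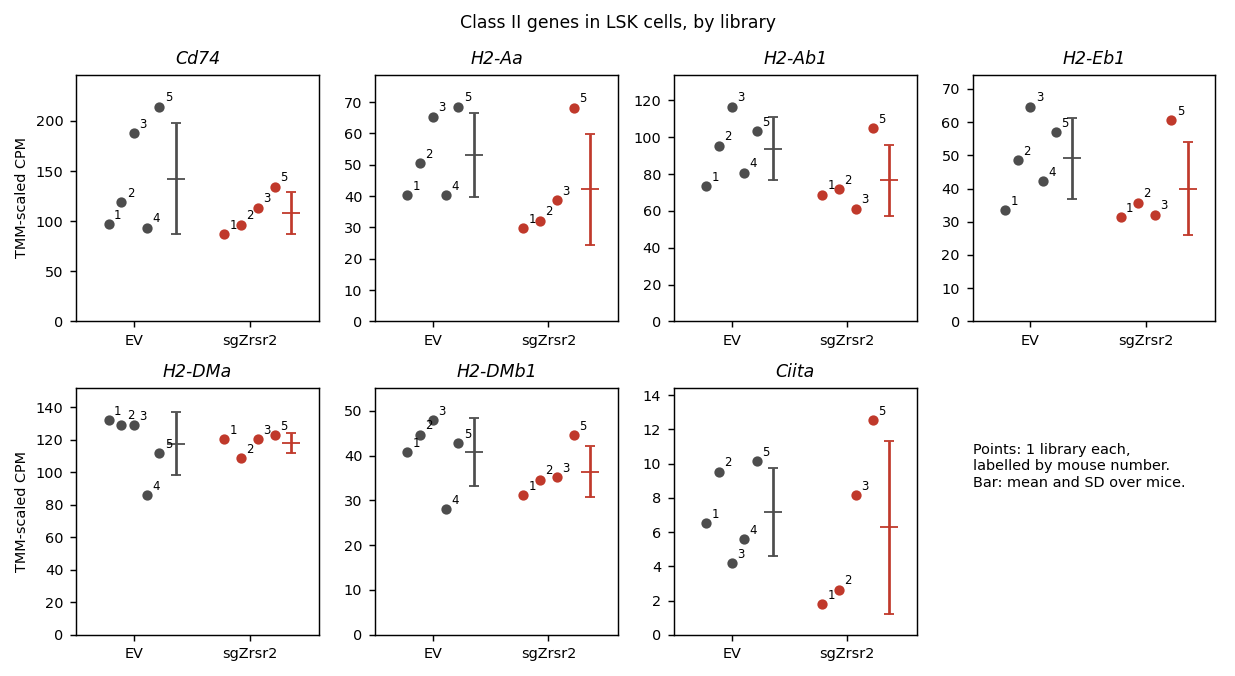
TMM-scaled CPM (vertical axes, from 0) of the 7 class II genes in 5 EV (grey) and 4 sgZrsr2 (red) libraries; each point is 1 library with its mouse number, and bars give the mean and SD. EV 3, EV 5 and sgZrsr2 5 are the 3 highest libraries for H2-Aa, H2-Ab1, H2-Eb1 and Cd74, and the groups overlap for every gene.

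The peptide-binding chains were described first. H2-Ab1 (ENSMUSG00000073421; chromosome 17, 34263209 to 34269418, GRCm38), the beta chain of I-A, was at 73.6, 95.4, 116.6, 80.7 and 103.3 CPM in EV 1 to 5. The sgZrsr2 libraries 1, 2, 3 and 5 had 68.8, 71.8, 61.3 and 105.0 CPM. The sgZrsr2 group thus held 3 libraries below every EV library and 1 among the highest of all. The means were 93.9 ± 17.3 CPM (SD, n = 5) and 76.7 ± 19.4 CPM (SD, n = 4), a log2 fold change of -0.29 with a 95% interval from -0.69 to 0.11 (edgeR adjusted p = 0.728).

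H2-Aa (ENSMUSG00000036594; chromosome 17, 34282744 to 34287827), the alpha chain that pairs with it, was at 40.3, 50.6, 65.3, 40.4 and 68.5 CPM in EV 1 to 5. With sgZrsr2 it was at 29.8, 32.2, 38.6 and 68.2 CPM in mice 1, 2, 3 and 5. Again sgZrsr2 1, 2 and 3 lay below all EV libraries and sgZrsr2 5 lay near the top. The log2 fold change was -0.33, with an interval from -0.91 to 0.25 (edgeR adjusted p = 0.759). The ratio of H2-Aa to H2-Ab1 in CPM, comparable between libraries only, was 0.433 in sgZrsr2 1 and 0.448 in sgZrsr2 2, the lowest of the 9.

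H2-Eb1 (ENSMUSG00000060586; chromosome 17, 34305883 to 34316199), the beta chain of I-E, was at 33.4, 48.4, 64.6, 42.1 and 57.0 CPM in EV 1 to 5 and at 31.3, 35.7, 32.2 and 60.6 CPM in sgZrsr2 1, 2, 3 and 5. Its group means of 49.1 ± 12.2 CPM (SD, n = 5) and 39.9 ± 13.9 CPM (SD, n = 4) differed by less than either SD (edgeR log2 fold change -0.30, interval -0.82 to 0.23). The H2b haplotype of C57BL/6 mice is known to lack a working I-E alpha gene. That gene, H2-Ea-ps, was listed at 0 counts in all 9 libraries, where a count of 0 allows up to 0.0658 to 0.129 CPM (3 counts per library, counting error only). RNA for the I-E beta chain was therefore measured without RNA for its partner.

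Cd74 (ENSMUSG00000024610; chromosome 18, 60803848 to 60812646), the invariant chain, had the highest mean CPM of the members over the 9 libraries. It was at 97.2, 119.0, 188.0, 93.4 and 214.2 CPM in EV 1 to 5 and at 87.0, 96.5, 113.5 and 134.4 CPM in sgZrsr2 1, 2, 3 and 5. EV 3 and EV 5 were above every sgZrsr2 library, while the other 3 EV libraries lay within the sgZrsr2 range. The means of 142.4 ± 55.3 CPM (SD, n = 5) and 107.8 ± 20.8 CPM (SD, n = 4) gave a log2 fold change of -0.40, with an interval from -0.98 to 0.18 (edgeR adjusted p = 0.735). This was the lowest estimate among the members, and 8.94% of all genes tested had a lower one.

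The DM chains, which form the peptide editor, varied less. H2-DMa (ENSMUSG00000037649; chromosome 17, 34135182 to 34139101) was at 132.2, 129.4, 129.1, 86.1 and 111.8 CPM in EV 1 to 5 and at 120.5, 108.6, 120.3 and 122.7 CPM in sgZrsr2 1, 2, 3 and 5. The means of 117.7 ± 19.4 CPM (SD, n = 5) and 118.0 ± 6.38 CPM (SD, n = 4) were nearly equal, with an edgeR log2 fold change of 0.0034 and an interval from -0.29 to 0.30. EV 4 was the lowest library. The log2 SD of H2-DMa within groups was 0.204, with 25.2% of all genes tested below it, against 0.299 to 0.453 for the binding chains and Cd74.

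H2-DMb1 (ENSMUSG00000079547; chromosome 17, 34153072 to 34160223) was at 40.8, 44.6, 48.0, 28.1 and 42.7 CPM in EV 1 to 5 and at 31.2, 34.6, 35.2 and 44.5 CPM in sgZrsr2 1, 2, 3 and 5. EV 4 was again the lowest library, and the groups overlapped (edgeR log2 fold change -0.17, interval -0.53 to 0.20). Its expected counts were whole in 0 of 9 libraries, as happens where RSEM divides reads between genes, and the other gene is not recorded. H2-DMb2 is a near copy of it and was at 2.44 to 7.58 CPM, so the levels of both are uncertain.

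Ciita (ENSMUSG00000022504; chromosome 16, 10488178 to 10527564), the coactivator of the other members, was the least abundant and the most variable. It was at 6.51, 9.53, 4.18, 5.59 and 10.2 CPM in EV 1 to 5 and at 1.78, 2.64, 8.15 and 12.5 CPM in sgZrsr2 1, 2, 3 and 5. The lowest 2 libraries and the highest were all sgZrsr2, a 7.05-fold range that encloses every EV library. Its log2 SD within groups was 0.947, and 91.4% of genes had a smaller one. The log2 fold change of -0.19 had an interval from -1.34 to 0.96 (edgeR adjusted p = 0.931). The sums per gene do not tell apart the transcripts from its several promoters.

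Without EV 5, sgZrsr2 3 and sgZrsr2 5, the libraries with high Car1, Ciita was at a log2 fold change of -1.53 (edgeR unadjusted p = 0.00587, adjusted p = 0.339), with the low libraries sgZrsr2 1 and 2 as the whole sgZrsr2 group. With those 2 libraries averaged into 1 sample, it was 0.0897 (adjusted p = 0.962). With limma-voom quality weights it was -1.15 (adjusted p = 0.236). Without sgZrsr2 5 alone, 3 members had an unadjusted p under 0.05: H2-Aa (log2 fold change -0.66), H2-Ab1 (-0.48) and H2-Eb1 (-0.57). In that fit 7.58% of all genes (1154 of 15220) had such a p. Their smallest adjusted p was then 0.613.

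Levels can be compared between genes only per length. Divided by the union of exons in GENCODE M21, the members stood over the 9 libraries at means of 75.7 CPM per kilobase (Cd74), 34.2 (H2-DMa), 33.6 (H2-Ab1), 23.2 (H2-Eb1), 23.1 (H2-DMb1), 12.7 (H2-Aa) and 0.712 (Ciita). H2-DMa was above H2-Ab1 in 5 of 9 libraries and H2-Eb1 above H2-DMb1 in 4 of 9, so these neighbours did not differ beyond their spread. The other neighbours kept this order in 9 of 9 libraries. Divided by the longest principal transcript, a length chosen after the data were seen, H2-Aa moved up to 42.7 CPM per kilobase. This was above H2-DMb1 at 27.7 and H2-Eb1 at 27.0, while Cd74 (90.1) stayed first and Ciita (1.13) last. On that scale Cd74 was above H2-Ab1 (71.2) in 8 of 9 libraries. H2-Ab1 was above H2-DMa (71.1) in 5 of 9, and H2-DMb1 above H2-Eb1 in 5 of 9. The remaining neighbours kept the order in 9 of 9.

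The members did not all vary together. Over the 9 libraries, the 6 pairs among Cd74, H2-Aa, H2-Ab1 and H2-Eb1 had Pearson correlations of log2 CPM from 0.781 to 0.977, all 6 with an adjusted p under 0.05 (two-sided exact permutation tests, Benjamini-Hochberg over 21 pairs), as had 4 of them by rank. H2-Ab1 and H2-Eb1 went together most closely (r = 0.977, exact permutation p = 2.76e-05, adjusted p = 0.00058). Their Spearman's rho was 0.967 (exact permutation p = 0.000165, adjusted p = 0.00347). Centred within each group the pair had r = 0.978, and without EV 3 and sgZrsr2 3, the libraries farthest from the median, r = 0.986. Libraries sgZrsr2 1 and 2 are so alike that the points are not fully independent; without sgZrsr2 2 the correlation was 0.976.

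**Figure D2:**
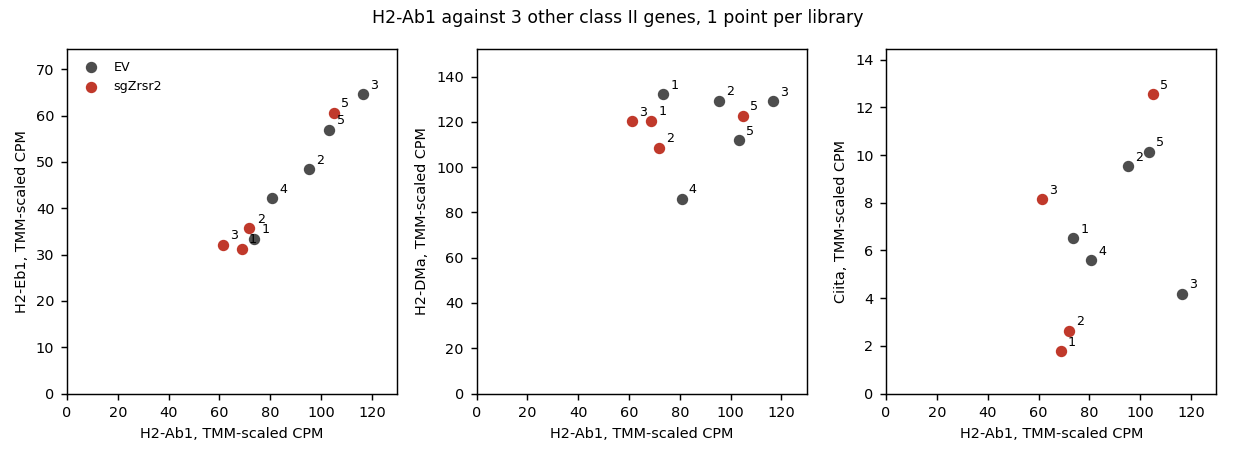
H2-Ab1 (horizontal axes) against H2-Eb1, H2-DMa and Ciita (vertical axes), all in TMM-scaled CPM, with 1 point per library labelled by mouse number (grey EV, red sgZrsr2). H2-Eb1 rises with H2-Ab1 (r = 0.977), H2-DMa stays between 86.1 and 132.2 CPM, and EV 3 has the highest H2-Ab1 with Ciita at 4.18 CPM.

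H2-DMa went with none of these 4 genes or Ciita (r = 0.0923 to 0.235, adjusted exact permutation p = 0.682 to 0.856 over 5 pairs). With H2-DMb1 it had r = 0.732 (exact permutation p = 0.016, adjusted p = 0.0462; rho 0.667, exact permutation p = 0.0589). That relation rested on the low library EV 4 and on sgZrsr2 2, since r was 0.321 without them. H2-DMb1 also went with H2-Aa (r = 0.782, adjusted exact permutation p = 0.0462; 0.766 without EV 5 and sgZrsr2 5; rho 0.683, adjusted p = 0.088). With Cd74 it passed by rank (rho 0.85, adjusted exact permutation p = 0.0255) and not by Pearson's r (0.723, adjusted p = 0.0642). Of the 6 pairs with Ciita, 0 passed (r = 0.128 to 0.704, adjusted exact permutation p = 0.0691 to 0.789). H2-Ab1 and Ciita had r = 0.413 (exact permutation p = 0.268, adjusted p = 0.352; rho 0.433, exact permutation p = 0.25), and r was 0.892 without EV 3 and sgZrsr2 3. EV 3 held the highest H2-Ab1 and H2-Eb1 of the 9 libraries with the third lowest Ciita, and sgZrsr2 3 held the lowest H2-Ab1 with Ciita at 8.15 CPM. The ratio of H2-Ab1 to Ciita in CPM was 7.52 in sgZrsr2 3, 27.9 in EV 3 and 38.6 in sgZrsr2 1.

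Of the other class II genes of the region, 4 of 5 were tested and 0 passed, 2 with higher and 2 with lower estimates. H2-Oa and H2-Ob encode DO, which holds back DM. H2-Ob was at 55.9, 38.2, 35.0, 16.8 and 35.1 CPM in EV 1 to 5 and at 42.6, 37.9, 85.8 and 39.2 CPM in sgZrsr2 1, 2, 3 and 5. It was highest in sgZrsr2 3, where H2-Ab1 was lowest, and its log2 fold change of 0.51 (edgeR adjusted p = 0.735) was 0.14 without that library. H2-Oa averaged 9.57 ± 2.44 CPM over the EV libraries (SD, n = 5) against 11.8 ± 0.665 CPM over the sgZrsr2 libraries (SD, n = 4), a log2 fold change of 0.31 (edgeR adjusted p = 0.737). H2-DMb2 had a log2 fold change of -0.19 and H2-Eb2, at most 1.43 CPM, one of -0.18.

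The factors that bind class II promoters, a list of 7 genes, held 6 higher and 1 lower estimate, 0 with an unadjusted p under 0.05, and a median log2 fold change of 0.11. Rfx5, the DNA-binding subunit of the RFX complex, averaged 52.4 ± 10.7 CPM in the EV group (SD, n = 5) and 62.3 ± 20.7 CPM in the other (SD, n = 4). Its log2 fold change was 0.25 (edgeR adjusted p = 0.778) and 0.04 without sgZrsr2 3. Rfxank, another RFX subunit, averaged 23.4 ± 2.81 and 25.8 ± 3.56 CPM (log2 fold change 0.14, edgeR adjusted p = 0.811). These RNA levels say nothing of the proteins' binding.

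Genes upstream of Ciita, a list of 9, held 5 higher and 4 lower estimates with a median of 0.16, and again 0 had an unadjusted p under 0.05. The interferon gamma receptor chain Ifngr1 averaged 106.3 ± 22.9 CPM (SD, 5 EV libraries) against 140.7 ± 33.5 CPM (SD, 4 sgZrsr2 libraries; log2 fold change 0.40, interval -0.01 to 0.82, edgeR adjusted p = 0.714), failing the test. Jak2, which carries the interferon gamma signal and is the mutated gene of these mice, had a log2 fold change of 0.27 (interval -0.01 to 0.55). Irf8, a factor of dendritic cell and monocyte development, ran from 128.6 CPM in EV 4 to 715.4 CPM in EV 1. In the other group it ran from 180.4 CPM in sgZrsr2 2 to 654.3 CPM in sgZrsr2 3. The range was wide inside each group, and the log2 fold change of -0.32 did not pass (edgeR adjusted p = 0.881). It ran from -0.73 without sgZrsr2 3 to -0.0862 without sgZrsr2 2, and was -1.24 with limma-voom quality weights (unadjusted p = 0.0104, adjusted p = 0.188).

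**Figure D3:**
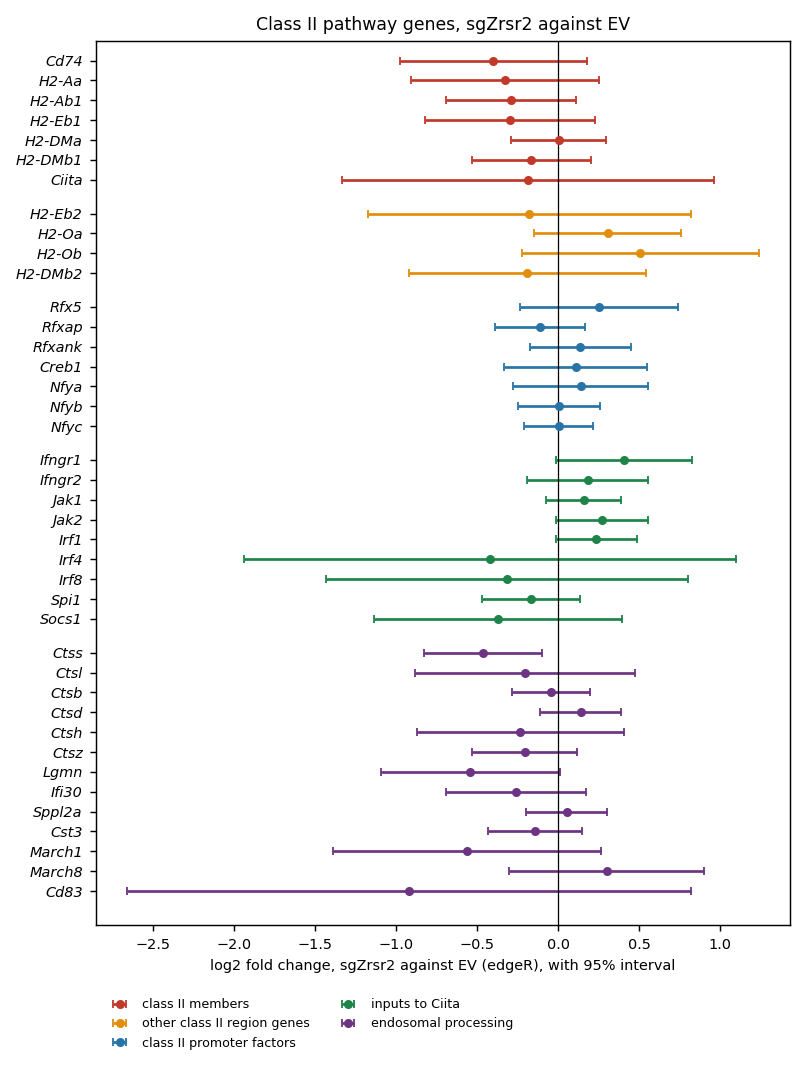
The edgeR log2 fold change of sgZrsr2 against EV (horizontal axis) with its 95% interval, for each tested gene of the class II pathway (rows, coloured by list). The intervals of all genes but Ctss include 0; none of the genes passed the adjusted threshold.

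Among 13 genes of endosomal processing, 3 had higher and 10 lower estimates, with a median of -0.21. Of these, 1 had an unadjusted p under 0.05 and lower groups without overlap, where 2.98% of all genes were lower at that p and 1.32% lower without overlap. This was Ctss, cathepsin S, the protease that trims the invariant chain. It was at 57.7, 62.8, 82.9, 49.3 and 49.5 CPM in EV 1 to 5 and at 47.1, 46.0, 45.7 and 36.2 CPM in sgZrsr2 1, 2, 3 and 5. The highest sgZrsr2 library was just under the lowest EV library, EV 4. The log2 fold change was -0.47 (interval -0.83 to -0.10, unadjusted p = 0.0167), and it failed the correction (edgeR adjusted p = 0.714). In the fits that each left out 1 library it ran from -0.53 to -0.33, and the unadjusted p was 0.0535 without sgZrsr2 5. Ifi30, a thiol reductase of the same compartment, averaged 35.2 ± 8.41 CPM in EV libraries (SD, n = 5) against 29.4 ± 5.94 CPM (SD, n = 4) in the others (log2 fold change -0.26, edgeR adjusted p = 0.754; -0.13 without EV 3).

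Markers of cells known for class II were present at levels that differed between libraries. Of 11 B cell markers, 10 were tested, all 10 with estimates below 0 (median log2 fold change -0.82) and 0 with an unadjusted p under 0.05. The sum of the 11 was 24.8 to 81.7 CPM with EV and 22.2 to 59.0 CPM with sgZrsr2. Ms4a1 and Pax5, which mark committed B cells, were at most 0.465 and 2.30 CPM, and Cd79b and Cd79a led the list with means of 17.1 and 5.85 CPM. The sum was highest in EV 1 (81.7 CPM), whose 7 members summed to 424 CPM, while EV 3 with 616 CPM had 35.4 CPM of B cell markers.

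The 10 conventional dendritic cell markers summed to 379 to 479 CPM with EV and 339 to 453 CPM with sgZrsr2, mostly Wdfy4 at a mean of 337.3 CPM and Itgax at 28.7 CPM. The defining genes Zbtb46, Xcr1 and Clec9a were at 1.35 to 5.74, 0.668 to 3.09 and 1.74 to 16.4 CPM. Of the list, 8 had lower estimates, 3 with an unadjusted p under 0.05, and 2 had groups without overlap, where 2.98% of all genes were lower at that p and 1.32% lower without overlap. The 3, named after their values were seen, were Xcr1, Naaa and Plbd1, and the groups did not overlap for Naaa (log2 fold change -0.97) and Plbd1 (-0.94), which macrophages and neutrophils can also express. None passed the correction (edgeR adjusted p = 0.714 each). The 8 plasmacytoid dendritic cell markers, led by Tcf4 and Bst2, summed to 190 to 320 CPM with EV and 214 to 379 CPM with sgZrsr2, lowest in EV 4.

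The 10 monocyte and macrophage markers summed to 316 to 590 CPM with EV and 310 to 497 CPM with sgZrsr2. Of the 9 libraries, EV 3 had the highest sum of these markers (590 CPM) and of the class II members (616 CPM), and sgZrsr2 1 had the lowest of both (310 and 370 CPM). In EV 5, second in class II at 608 CPM, the monocyte sum was 379 CPM and that of 8 mature neutrophil markers 182 CPM, against 15.6 to 78.1 CPM in the other EV libraries. The neutrophil sum was highest, at 211 CPM, in sgZrsr2 3, whose members summed to 409 CPM. In sgZrsr2 5, whose members summed to 548 CPM, the monocyte sum was 497 CPM and the neutrophil sum 30.3 CPM. Of the monocyte list 7 of 10 had lower estimates, 1 of them, Ccr2, with an unadjusted p under 0.05 (2.98% of all genes were lower at that p), and of the neutrophil list 3 of 8. The most abundant monocyte markers were Ly6c2 and Ccr2, which myeloid progenitors also express. The macrophage genes Adgre1, C1qa, C1qb and C1qc were at most 3.05, 3.43, 3.26 and 3.58 CPM, each highest in EV 5. Of the same list, Cd68 was lowest in EV 5, at 21.7 CPM, and Fcgr1 was highest in EV 3, at 4.4 CPM. The 8 T and NK cell markers summed to at most 7.95 CPM, and Cd3e was at 0 in 8 of the 9 libraries. The megakaryocyte and erythroid markers summed to 125 to 332 CPM with EV and 223 to 514 CPM with sgZrsr2. All 9 tested had higher estimates (median log2 fold change 1.58), 1 of them, Gp1ba, with an unadjusted p under 0.05, where 3.87% of all genes were higher at that p. Of the 10 markers in the table, 9 were higher in EV 5, sgZrsr2 3 and sgZrsr2 5 than in any of the other 6 libraries. Car1, by which these 3 libraries were singled out, is 1 of the 9. The share of all genes that set these libraries apart was not computed, so the count only describes this list. Thus 1 of 5 EV libraries and 2 of 4 sgZrsr2 libraries carried that shift. Vwf, for example, was at 53.2 to 91.2 CPM in those 3 libraries and at 4.64 to 11.4 CPM in the other 6, sgZrsr2 1 and 2 among them. Of the 8 LSK markers 5 were higher and 3 lower, and their sum was 1350 to 1800 CPM with EV and 1510 to 1770 CPM with sgZrsr2. What these cells or progenitors contributed to the class II counts was not tested.

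**Figure D4:**
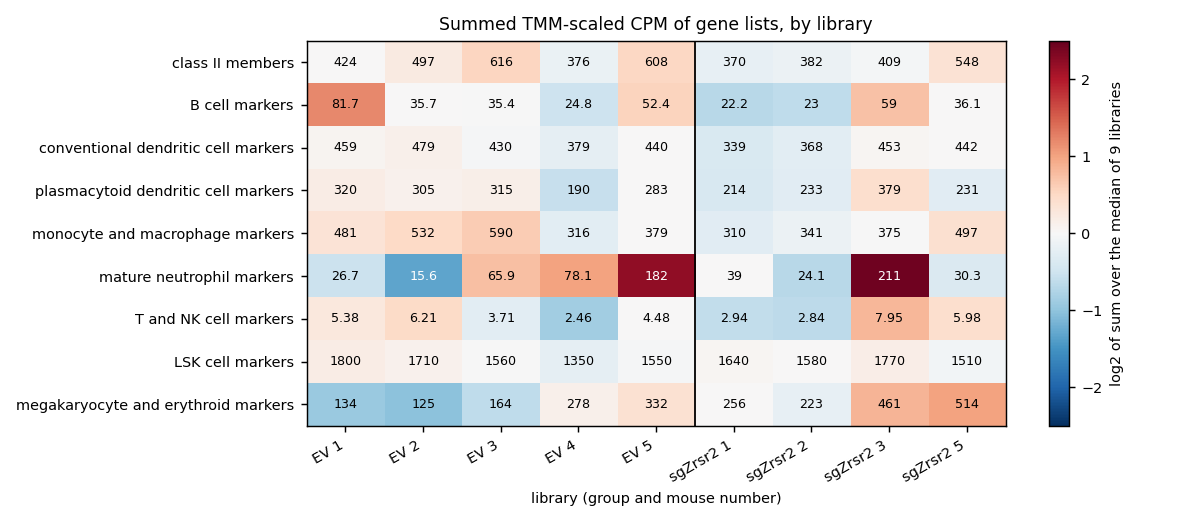
Summed TMM-scaled CPM (numbers) of the class II members and of 8 marker lists (rows) in each library (columns, with EV left of the line), coloured by the log2 of the sum over its median in the 9 libraries. The members are highest in EV 3 (616 CPM), EV 5 (608 CPM) and sgZrsr2 5 (548 CPM). In these libraries the monocyte list is at 590, 379 and 497 CPM and the neutrophil list at 65.9, 182 and 30.3 CPM. The neutrophil list peaks in sgZrsr2 3 (211 CPM).

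The profile of the members, the mean of their centred log2 CPM, was -0.09, 0.22, 0.31, -0.23 and 0.43 in EV 1 to 5 and -0.54, -0.39, -0.12 and 0.42 in sgZrsr2 1, 2, 3 and 5. The members were not scaled to equal spread. Ciita, with a log2 SD within groups of 0.947 against 0.204 to 0.453 for the others, therefore weighed most. The members did not all vary together, so the profile is not a pattern that each of them shares. The 5 other genes whose level over the 9 libraries was most like this profile were Tmem214 (r = 0.92), H2afx (0.917), Mllt1 (0.917), Ppap2c (0.914) and Cdk5rap2 (0.911). Centred within groups they were H2afx (0.95), Eif4ebp2 (0.945), Ep400 (0.941), Nav1 (0.937) and Slc8a1 (0.931). These were picked as the top of 14937 genes over 9 points that share libraries and depth, so such values describe the ranking only.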

How the data were processed

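The authors deposited RSEM expected counts per Ensembl gene, not normalized, with 1 column per library; cutadapt 1.11, RSEM 1.2.30 and GRCm38 are named in the submitters' processing notes. Libraries were made from 5 ng of total RNA after polyA selection, per the labels' protocols. The aligner, annotation and strandedness are not given in the sources used here. Between 9.78% and 13.3% of values per library were not whole, because RSEM divides shared reads.

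Counts were rounded, filtered with filterByExpr (minimum count 10, total 15; 14944 genes, 99.93% of counts), scaled by TMM (factors 0.894 to 1.07) and compared with edgeR 4.0.16 (glmQLFTest, R 4.3.3), adjusting p by Benjamini-Hochberg across the 14944 genes. The SE is the size of the log2 fold change over the square root of F. Log2 CPM for correlations had a prior count of 2. The fit was tested on simulated data, with 50 changed genes of each size. At the adjusted threshold it found 0% of those with a log2 change of 0.5, 50% at 1, 82% at 2 and 88% at 3. The estimates of the members were below 0.5 in size, so missing that threshold does not show that they were unchanged. Library totals were 23238264 to 45585531 counts.

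The 7 members, the gene lists (114 genes) and the tests were chosen with earlier results of these data known, and lists were written from general knowledge. Named genes were the members, Zrsr2, the class II region genes, Rfx5, Irf8, Ctss and Ifi30, genes of the factor, input and processing lists with an unadjusted p under 0.05 (or else the 2 smallest), the 2 or 3 most abundant markers of a list and the 5 genes most like the members. The alternatives changed the size factors (RLE, upper quartile) or the filter (none, at least 1 CPM in at least 4 libraries), or used DESeq2 1.42.0, limma 3.58.1 voom with quality weights, the mouse number as a block, averaging sgZrsr2 1 and 2, or fewer libraries. Other markers were named as defining a cell type or after their values were seen. Some listed genes are not reported here.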

Additional observations from a re-analysis of the deposited data

Results flagged for a closer look

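Of 34 sets of values (17 measures in 2 groups), 5 held a library far from the rest of its group by its gap over the group's range. Chance gives about 1.7 if the libraries are independent. The nearest pair of libraries, both sgZrsr2, is so alike that they are not fully independent. The figure of 1.7 is therefore only rough. Whether the 5 sets exceed chance was not tested, and they are only described. H2-Eb1 stood out in sgZrsr2 5, at 60.6 CPM where the rest of that group ran from 31.3 to 35.7 CPM. H2-DMa stood out in sgZrsr2 2, at 108.6 CPM against 120.3 to 122.7 CPM, a small gap in a narrow group. H2-Ob stood out in sgZrsr2 3, at 85.8 CPM against 37.9 to 42.6 CPM. Ctss stood out in sgZrsr2 5, at 36.2 CPM against 45.7 to 47.1 CPM. Zrsr2 stood out in EV 3, at 62.2 CPM against 50.6 to 51.9 CPM.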

How the results depend on the processing

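The log2 fold changes of Cd74, H2-Aa, H2-Ab1, H2-Eb1 and H2-DMb1 stayed below 0 and short of the adjusted threshold in 9 alternatives and in 9 fits that each left out a library. Those fits ran from -0.52 to -0.20 for Cd74, -0.66 to -0.20 for H2-Aa, -0.48 to -0.20 for H2-Ab1, -0.57 to -0.18 for H2-Eb1, -0.28 to -0.10 for H2-DMb1, -0.77 to 0.11 for Ciita, -0.0920 to 0.0483 for H2-DMa, -0.37 to 0.0289 for H2-DMb2 and -0.37 to 0.0620 for H2-Eb2. H2-DMa turned to -0.10 with limma-voom weights, -0.0891 with the replicate block and -0.0488 without EV 5, sgZrsr2 3 and sgZrsr2 5. Ciita turned to 0.0897 with sgZrsr2 1 and 2 averaged. With limma-voom weights H2-Eb2 turned to 0.0936, Rfx5 to -0.0449 and Rfxank to -0.0378. Without the 3 libraries together they were at 0.20, -0.14 and -0.0075. The cause was not tested. Genes past the adjusted threshold numbered 16 with DESeq2 and 1 with sgZrsr2 1 and 2 averaged. Members with an unadjusted p under 0.05 numbered 1 with limma-voom weights (Ciita) and 2 with the replicate block (Cd74 and H2-Aa). They numbered 2 without the 3 libraries (H2-Aa and Ciita) and 0 to 3 over the fits without a library, the 3 without sgZrsr2 5. Of all genes, 1024 of 14944 had such a p in the main fit, 341 of 14944 with the block and 2551 of 14944 with limma-voom weights. Without the 3 libraries it was 1692 of 15323, without sgZrsr2 5 it was 1154 of 15220 and without EV 4 it was 609 of 14793. The member counts therefore stand beside unlike shares of all genes. Deviations from the group mean correlated at -0.227, -0.0904, -0.404 and 0.369 between same-numbered libraries of mice 1, 2, 3 and 5. Between libraries of unlike number they correlated at -0.407 to 0.523. The same-numbered values lie inside that range, and such correlations cannot decide whether the mice were paired. With the block Cd74 was at -0.47 and H2-Aa at -0.46.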

Other observations

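EV 3, the library with the highest class II sum, was also the highest of the 9 for several genes of class II processing, named here after their values were seen. March1, a ubiquitin ligase that removes class II from the surface, was at 18.5 CPM in EV 3 and at 4.36 to 7.66 CPM in the other 8 libraries. Ctsl, cathepsin L, was at 47.1 CPM against 15.8 to 32.7 CPM, and Cd83, which protects class II from that ubiquitin ligase, was at 5.46 CPM against 0.139 to 1.36 CPM. In EV 5, whose class II sum was nearly as high, March1 (4.36 CPM) and Ctsl (15.8 CPM) were the lowest of the 9 libraries, and Cd83 was at 1.08 CPM. March8, a related ubiquitin ligase, went the other way and was lowest of the 9 in EV 3, at 8.98 CPM against 12.7 to 27.0 CPM. Over abundant genes EV 3 lay at a median absolute log2 difference of 0.216 (sgZrsr2 1) to 0.499 (sgZrsr2 3) from the other libraries. It had the lowest TMM factor (0.894). Outside class II processing it was lowest of the 9 for Kit (246.7 CPM) and Vwf (4.6 CPM), named after their values were seen. Whether the extremes of EV 3 are particular to class II processing was not tested.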
